A study of Mus musculus with 9 samples.

Results

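The levels of 10 genes best known from striated muscle were followed across 9 libraries of mouse aorta: Acta1, Actc1, Actn2, Tcap, Tnnt3, Tnnc2, Mylpf, Myh4, Casq1 and Ckm. They were taken by gene symbol from the deposited table, 10 of its 54532 genes, from a list drawn up with earlier results of these data known. All mice carried the Apoe-/- genotype, a loss of apolipoprotein E that makes mice prone to atherosclerosis. They were 6 to 8 weeks old at the start and were kept for 24 weeks on 1 of 3 regimens: high fat diet plus ammonium iron(III) citrate injected into the peritoneum (HFD_IO), high fat diet alone (HFD), or chow (CD). RNA of the harvested atherosclerotic aorta was sequenced from 3 libraries per group. The labels number the aortas but do not say how many animals each stands for, so the p-values below measure the spread between these libraries. The table numbers its columns 1 to 3 within each group, numbers that do not match those of the labels, so HFD_2 below means the table's column of that name.

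Skeletal and cardiac muscle cells contract by sliding myosin thick filaments along actin thin filaments, which are anchored in Z-discs and switched on by calcium through the troponin complex. The wall of the aorta is built of smooth muscle, which has its own actin and myosin genes and no troponin switch. Heart tissue lies at the root of the aorta, and skeletal muscle, brown fat and nerves lie near its course, so a dissected aorta can carry some of each. The question addressed here was whether the 10 genes keep the same order and the same proportions across the libraries, as genes brought in together by 1 tissue would.

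The deposited table gives the members these positions, from the first to the last base of each gene. The build, GRCm38, was taken from a match of the table's coordinates to mouse annotation, since the submitters' processing notes name a human build. Of the thin filament and Z-disc genes, Acta1 lies on chromosome 8 (123891769 to 123894751), Actc1 on chromosome 2 (114047282 to 114053548), Actn2 on chromosome 13 (12269426 to 12340760) and Tcap on chromosome 11 (98383811 to 98384953). Of the troponins, Tnnt3 lies on chromosome 7 (142498836 to 142516009) and Tnnc2 on chromosome 2 (164777161 to 164779967). The myosin genes are Mylpf on chromosome 7 (127208890 to 127214298) and Myh4 on chromosome 11 (67238029 to 67260446). The calcium store gene Casq1 lies on chromosome 1 (172209894 to 172219868) and the energy gene Ckm on chromosome 7 (19404776 to 19422841).

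Promoter sequence is shown for 6 members, because these members fell into different patterns across the libraries. Each run is the 250 bases before the RefSeq transcription start (RefSeq, GRCm38.p6), written 5′ to 3′ on the gene's own strand. Capitals mark matches, on either strand, to the E-box CANNTG, bound by MyoD-type factors among others, to the MEF2 site and to the CArG box, which serum response factor binds. Of the 10 members, 8 matched the RefSeq table by symbol, and Tcap and Tnnt3 are not shown. The first 3 runs belong to Acta1 (minus strand, chr8:123894776-123895025), Ckm (plus strand, chr7:19410844-19411093) and Myh4 (plus strand, chr11:67237562-67237811), which were highest in the same 2 HFD libraries. The next belongs to Actc1 (minus strand, chr2:114052876-114053125), highest in 1 HFD_IO library. The last belong to Actn2 (minus strand, chr13:12340733-12340982), whose 3 groups did not overlap, and Casq1 (minus strand, chr1:172219896-172220145), for which HFD_IO lay apart while HFD and CD overlapped.
Acta1: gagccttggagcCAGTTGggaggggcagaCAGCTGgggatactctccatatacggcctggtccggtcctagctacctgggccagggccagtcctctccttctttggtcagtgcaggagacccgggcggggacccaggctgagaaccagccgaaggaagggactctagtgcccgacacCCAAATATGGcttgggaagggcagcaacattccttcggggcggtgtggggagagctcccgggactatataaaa
Ckm: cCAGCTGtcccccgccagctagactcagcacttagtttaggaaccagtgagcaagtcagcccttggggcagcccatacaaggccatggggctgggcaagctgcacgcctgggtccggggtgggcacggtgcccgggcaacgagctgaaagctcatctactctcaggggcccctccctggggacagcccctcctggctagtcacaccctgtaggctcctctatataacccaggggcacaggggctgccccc
Myh4: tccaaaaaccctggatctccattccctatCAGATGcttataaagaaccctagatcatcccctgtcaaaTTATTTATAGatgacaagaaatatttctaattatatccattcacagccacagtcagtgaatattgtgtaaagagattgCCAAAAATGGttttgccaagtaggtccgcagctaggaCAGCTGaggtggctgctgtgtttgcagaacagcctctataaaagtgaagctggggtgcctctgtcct
Actc1: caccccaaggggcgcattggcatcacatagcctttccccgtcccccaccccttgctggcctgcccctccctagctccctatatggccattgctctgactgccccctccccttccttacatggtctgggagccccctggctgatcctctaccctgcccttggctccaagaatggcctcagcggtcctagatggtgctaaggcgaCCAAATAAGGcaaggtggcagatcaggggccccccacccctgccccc
Actn2: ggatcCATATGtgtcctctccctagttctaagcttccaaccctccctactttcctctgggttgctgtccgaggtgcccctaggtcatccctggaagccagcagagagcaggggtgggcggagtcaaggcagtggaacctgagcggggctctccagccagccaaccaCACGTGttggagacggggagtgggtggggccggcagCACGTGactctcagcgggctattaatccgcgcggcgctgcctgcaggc
Casq1: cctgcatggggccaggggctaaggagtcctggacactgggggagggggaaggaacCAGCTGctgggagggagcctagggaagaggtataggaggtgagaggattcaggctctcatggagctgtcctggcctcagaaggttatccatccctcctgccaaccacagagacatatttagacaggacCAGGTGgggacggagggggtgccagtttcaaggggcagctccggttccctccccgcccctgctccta

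The CArG box occurred in 3 of the 8 promoters, those of Acta1, Actc1 and Myh4, while 1.47% of 32851 mouse promoter windows of the same length held one. The box lay 73 to 64 bases before the start in Acta1 and 47 to 38 bases before it in Actc1. A MEF2 site was found in Myh4 alone among the 8, against 2.92% of all windows. E-boxes were found in 7 of the 8, all but Actc1, and in 66.2% of all windows. No match overlapped another. Members of different patterns thus held a CArG box, and these matches are descriptions of letters, not of binding. The Ckm, Actc1 and Mylpf windows lie inside the spans that the deposited table gives for these genes, and the Actn2 and Tnnc2 windows partly so. In these genes the RefSeq start is therefore not the outer end of the span.

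Depth and the tissue itself were checked before the members. Whole reads recovered from the deposited values summed to between 16660963 and 18308450 per library, and no 2 libraries of a group agreed within sampling noise. The smooth muscle actin Acta2 was listed at 1863 to 3175 FPKM in HFD_IO, 5422 to 6237 FPKM in HFD and 4264 to 4492 FPKM in CD, so the tissue of the label was present in every library. FPKM are reads per kilobase of gene length, scaled for depth, so levels of different genes can be set side by side. All 14 smooth muscle genes listed for the tissue were tested. Their summed level was 4078 to 6649 FPKM in HFD_IO, 11420 to 13994 FPKM in HFD and 8170 to 9725 FPKM in CD. Of these 14 genes, 9 fell in HFD_IO against HFD and 10 fell in HFD_IO against CD, while 2 rose and 1 fell in HFD against CD. Over all 13883 tested genes, 14.5% fell in HFD_IO against HFD, 15% fell in HFD_IO against CD, and 21.8% rose and 17.6% fell in HFD against CD. In bulk tissue, fewer cells of a type and less RNA per cell cannot be told apart.

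The 10 members did not share 1 pattern. A set of 5, the skeletal actin Acta1, the fast light chain Mylpf, the fast troponin T Tnnt3, the muscle creatine kinase Ckm and the fast myosin heavy chain Myh4, were high in HFD_2 and HFD_3 and low in the other 7 libraries. The cardiac actin Actc1 was highest in HFD_IO_2. Actn2 was ordered CD, HFD, HFD_IO, the calsequestrin Casq1 was low in HFD_IO, and Tcap was highest in HFD and lowest in CD. Tnnc2 was barely detected.

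**Figure D1:**
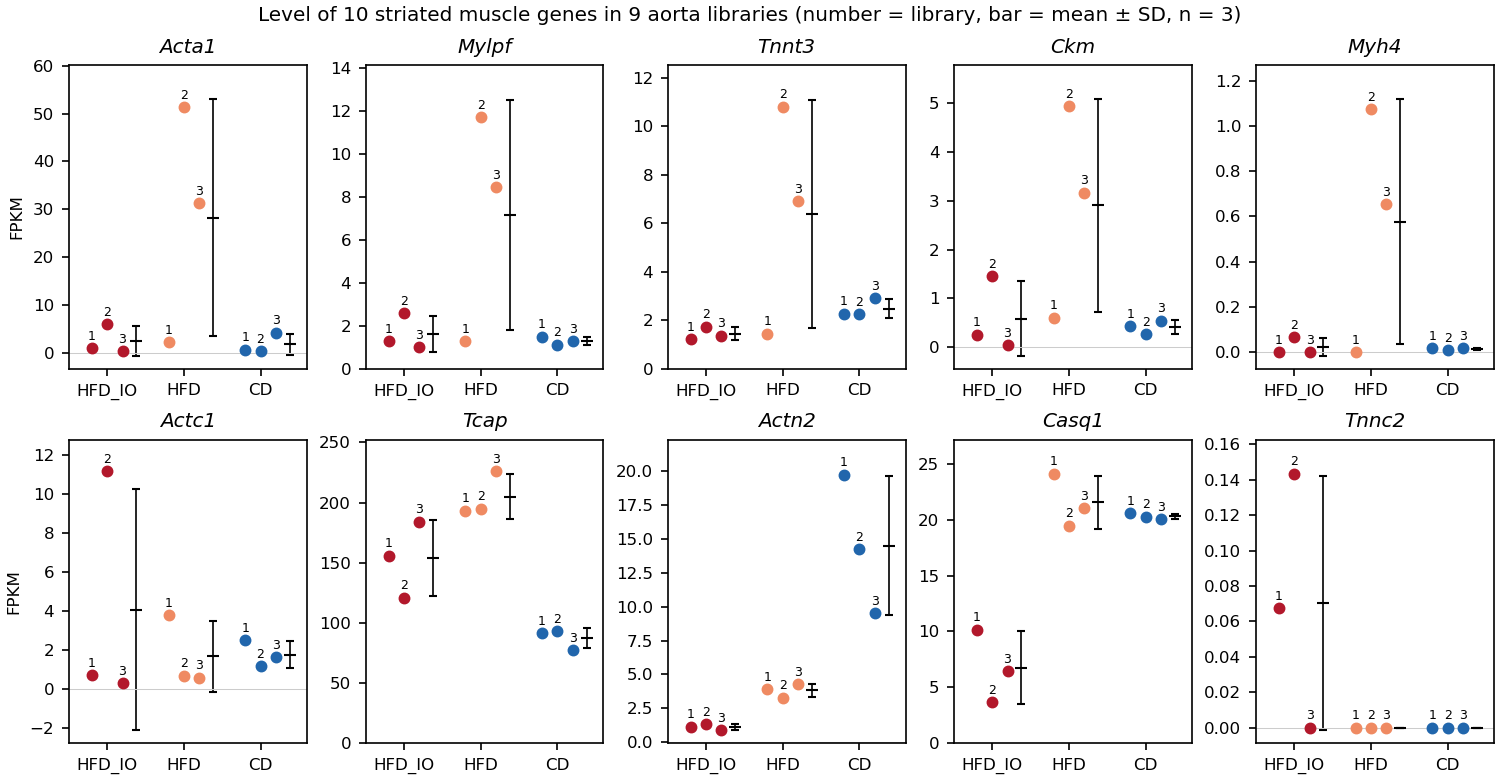
Level of each of the 10 members in FPKM (vertical axes, scaled per gene and starting near 0) in the 3 libraries of HFD_IO, HFD and CD, with the mean and SD of each group beside the points (n = 3). In the upper row the libraries HFD_2 and HFD_3 stand above the other 7, as for Acta1 at 51.3 and 31.3 FPKM, whereas in the lower row Actc1 peaks in HFD_IO_2 at 11.2 FPKM and Actn2 separates all 3 groups.

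Acta1 encodes the actin of skeletal muscle thin filaments. It was listed at 0.986, 5.94 and 0.258 FPKM in HFD_IO_1 to HFD_IO_3, at 2.16, 51.3 and 31.3 FPKM in HFD_1 to HFD_3, and at 0.602, 0.332 and 4.15 FPKM in CD_1 to CD_3. HFD_2 and HFD_3 were high, HFD_1 lay within the range of the other groups, and all 3 groups overlapped. The means were 2.39 ± 3.09 FPKM in HFD_IO, 28.3 ± 24.7 FPKM in HFD and 1.69 ± 2.13 FPKM in CD (SD, n = 3 each), so in each group the SD was close to the mean or above it. On the log2(FPKM + 1) scale Acta1 was higher in HFD than in CD by 2.97 (SE 1.05, limma adjusted p = 0.0494). That call held in 3 of 16 alternative settings and was lost when any 1 of HFD_2, HFD_3, CD_1, CD_2, CD_3, HFD_IO_1 or HFD_IO_3 was left out (adjusted p of 0.051 to 0.158). Adjusted p ranged from 0.00633 to 0.777 over the settings, and the difference was 0.51 without both HFD_2 and HFD_3. HFD_IO against HFD gave -2.76 (SE 1.05, adjusted p = 0.0792) and HFD_IO against CD gave 0.22 (adjusted p = 0.896). The coding sequences of Acta1, Actc1 and Acta2 are closely alike, and how reads matching several of them were counted is not given in the sources used here. Acta2 was at 5674 FPKM in HFD_1, 5422 FPKM in HFD_2 and 6237 FPKM in HFD_3. The part of shared reads in the level of Acta1 was not tested.

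Mylpf, the phosphorylatable light chain of fast myosin, was listed at 1.27, 2.59 and 1.01 FPKM in HFD_IO, at 1.29, 11.7 and 8.46 FPKM in HFD, and at 1.48, 1.12 and 1.29 FPKM in CD. The 2 HFD libraries were again the high ones, and HFD_1 lay among the CD libraries. Myh4 encodes the heavy chain of the fastest fibres and was read at 0, 0.0667 and 0 FPKM in HFD_IO, 0, 1.07 and 0.655 FPKM in HFD, and 0.0181, 0.00942 and 0.0183 FPKM in CD. Its sequence resembles those of Myh1 and Myh2, so reads may be shared among them. Of the 184 reads of Myh4 in all libraries, 108 were in HFD_2 and 64 in HFD_3. Where it was listed at 0, a count of 3 reads would have given 0.0270 to 0.0285 FPKM. Myh4 did not pass the filter of 1 FPKM in 3 libraries and was not tested.

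Tnnt3 encodes the fast skeletal troponin T, which ties the calcium switch to the thin filament. Its level was 1.23, 1.74 and 1.36 FPKM in HFD_IO, 1.44, 10.8 and 6.92 FPKM in HFD, and 2.27, 2.26 and 2.91 FPKM in CD. HFD_2 and HFD_3 were highest, and apart from them every CD library lay above every HFD_IO and HFD library. Ckm, which regenerates ATP from creatine phosphate, was listed at 0.260, 1.46 and 0.0389 FPKM in HFD_IO, at 0.608, 4.95 and 3.17 FPKM in HFD, and at 0.429, 0.272 and 0.547 FPKM in CD. HFD and CD did not overlap for Ckm, though HFD_1 was close above CD_3. An antisense gene, A930016O22Rik, shares 15.5% of the exonic bases of Ckm, and the sources used here do not give strand, so reads of the shared stretch cannot be assigned to either gene.

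None of these 3 tested genes passed the threshold of 0.05 in any comparison, by limma on FPKM or by voom on recovered reads, though unadjusted p was under 0.05 for Mylpf and Ckm in both comparisons with HFD and for Tnnt3 in HFD_IO against HFD. In HFD against CD, Mylpf differed by 1.50 (SE 0.54, adjusted p = 0.0536), Ckm by 1.28 (SE 0.47, adjusted p = 0.0562) and Tnnt3 by 0.82 (SE 0.47, adjusted p = 0.191), all limma values on the log2(FPKM + 1) scale. In HFD_IO against HFD the differences were -1.36 (adjusted p = 0.0917), -1.21 (adjusted p = 0.0819) and -1.33 (adjusted p = 0.0618) for Mylpf, Ckm and Tnnt3 in that order. Leaving out 1 library changed several of these calls. Without HFD_1, Acta1, Mylpf, Tnnt3 and Ckm all passed in HFD against CD and in HFD_IO against HFD, with differences for Mylpf of 2.26 (adjusted p = 0.00166) and -2.11 (adjusted p = 0.00236). These genes were grouped for being high in HFD_2 and HFD_3, the HFD libraries that remain without HFD_1. Their passing there follows from the grouping and is no separate support for a difference. Ckm also passed in HFD against CD without HFD_IO_2 (1.28, adjusted p = 0.0457). Without both HFD_2 and HFD_3, Mylpf differed by -0.0021 in HFD against CD and by 0.15 in HFD_IO against HFD.

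In the 5 genes of this pattern the lower of HFD_2 and HFD_3 exceeded the highest of the other 7 libraries by 2.18-fold in Ckm, 2.37-fold in Tnnt3, 3.26-fold in Mylpf, 5.27-fold in Acta1 and 9.81-fold in Myh4. In Tcap both libraries were also the highest 2, but by only 1.01-fold. Among the 8 members that passed the filter on low values, HFD_2 and HFD_3 were the top 2 libraries in 5, or 62.5%, while they were the top 2 in 13.3% of all 13883 tested genes. The same held for 5 of 8 tested brown adipocyte genes, for 3 of 12 tested fast fibre genes and for 2 of 14 smooth muscle genes. The pattern was found in these same members, so the 62.5% is a description and not a test. The 5 counted include Tcap and not the untested Myh4, and Ckm passed the filter only with HFD_2 and HFD_3 included.

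The 5 genes could not be told apart by the ratio of these libraries within counting error. HFD_2 was above HFD_3 by 1.64-fold for Acta1 (95% interval 1.50 to 1.79), 1.64-fold for Myh4 (1.19 to 2.27), 1.56-fold for Tnnt3 (1.29 to 1.89), 1.56-fold for Ckm (1.27 to 1.93) and 1.38-fold for Mylpf (1.12 to 1.72). These intervals are exact Clopper-Pearson intervals on the recovered reads, cover counting error only, and share the stretch from 1.50 to 1.72. Tcap was lower in HFD_2 than in HFD_3, at 0.861-fold (0.820 to 0.904), and so was Actn2 at 0.772-fold (0.641 to 0.930), while the interval of Casq1 (0.830 to 1.03) included 1. Relative to Acta1, Ckm stood at 0.0964 in HFD_2 and 0.101 in HFD_3, Tnnt3 at 0.211 and 0.221, Mylpf at 0.228 and 0.270, and Myh4 at 0.0209 in both. In the other 7 libraries the ratio of Tnnt3 to Acta1 lay between 0.293 and 6.79, and that of Ckm to Acta1 between 0.132 and 0.820.

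**Figure D2:**
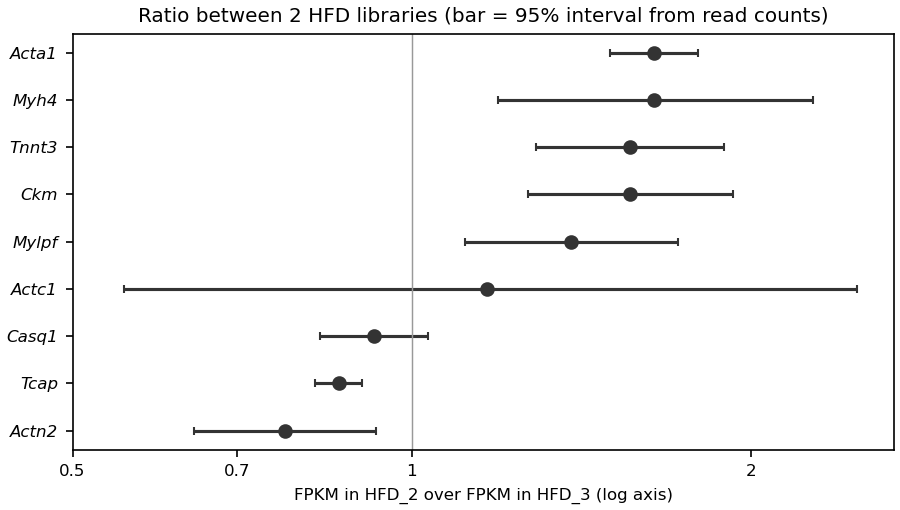
FPKM in HFD_2 over FPKM in HFD_3 for 9 members (log axis, points), with the 95% interval from the read counts (bars). Acta1, Myh4, Tnnt3, Ckm and Mylpf lie between 1.38 and 1.64, all with intervals above 1, whereas Tcap at 0.861 and Actn2 at 0.772 lie below 1.

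Other fast fibre genes with the same 2 high libraries were looked for in a list of 27. Tnni2, the fast troponin I, was listed at 1.12, 2.26 and 1.21 FPKM in HFD_IO, 0.496, 9.39 and 5.51 FPKM in HFD, and 0.145, 0.0757 and 0.367 FPKM in CD, and it rose in HFD against CD by 1.97 (SE 0.59, limma adjusted p = 0.0270). HFD_2 and HFD_3 were the high libraries, HFD_1 lay below all of HFD_IO, and HFD_IO lay wholly above CD. A further 4 genes, 2 of them from the excitation-contraction list, were chosen after their values were seen. They were picked for high levels in HFD_2 and HFD_3 and do not stand for their lists. Myl1, a fast myosin light chain, was listed at 0.469, 1.52 and 0.410 FPKM in HFD_IO, 2.18, 8.36 and 6.94 FPKM in HFD, and 2.15, 0.601 and 1.59 FPKM in CD. It was highest in HFD_2 and HFD_3, rose in HFD against CD by 1.39 (SE 0.43, limma adjusted p = 0.0296) and fell in HFD_IO against HFD by 1.83 (SE 0.43, adjusted p = 0.0139). Pvalb, the calcium buffer parvalbumin of fast fibres, was listed at 11.8 FPKM in HFD_2 and 5.79 FPKM in HFD_3 and at no more than 0.422 FPKM elsewhere. Atp2a1, the calcium pump of the fast sarcoplasmic reticulum, reached 3.44 FPKM in HFD_2 and 1.40 FPKM in HFD_3, and Actn3, the fast fibre Z-disc actinin, 2.87 and 1.85 FPKM in HFD_2 and HFD_3. Both stayed below 1 FPKM in the other 7 libraries. The ratio of HFD_2 to HFD_3 was not the same in all of these genes. It was 1.20 for Myl1 (95% Clopper-Pearson interval 1.01 to 1.44), below the stretch shared by the 5 members, and 2.46 for Atp2a1 (1.89 to 3.23), above it. The intervals of Tnni2 (1.37 to 2.12), Actn3 (1.18 to 2.05) and Pvalb (1.60 to 2.63) overlapped that stretch. The stretch is not an estimate of a common ratio. The interval of Myl1 overlapped that of Mylpf (1.12 to 1.72), and the interval of Atp2a1 overlapped that of Myh4 (1.19 to 2.27). Neither overlapped the interval of Acta1 (1.50 to 1.79). Whether these reads came from muscle beside the aorta or from its wall was not tested.

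The most abundant genes of the fast fibre list moved otherwise. Tpm2, a tropomyosin also made by smooth muscle, was listed at 175 to 287 FPKM in HFD_IO, 487 to 597 FPKM in HFD and 361 to 366 FPKM in CD. Tpm1, another tropomyosin of both tissues, fell in HFD_IO against HFD by 0.91 (SE 0.13, limma adjusted p = 0.00257), and Pdlim3, which binds actinin, fell by 1.30 (SE 0.21, adjusted p = 0.00364). Myom1, the M-band protein myomesin, was listed at 21.0 to 37.1 FPKM in HFD_IO, 20.3 to 29.1 FPKM in HFD and 95.2 to 105 FPKM in CD. The groups of Tpm2 were separate, and for Myom1 CD stood above both other groups. Of 12 tested fast fibre genes, 3 rose and 5 fell in HFD against CD (21.8% of all tested genes rose and 17.6% fell), 7 fell in HFD_IO against HFD (14.5% of all fell) and 8 fell in HFD_IO against CD (15% of all fell). Their median log2 changes were -0.04 in HFD against CD, -0.91 in HFD_IO against HFD and -0.86 in HFD_IO against CD, beside 0.06, -4.2e-05 and -0.01 over all tested genes. Among those that fell in HFD against CD were Mylk2, by 1.20 (SE 0.26, limma adjusted p = 0.00706), and Mybpc2, by 0.65 (SE 0.14, adjusted p = 0.00707). The ratio of HFD_2 to HFD_3 was 0.635 for Mylk2 and 0.918 for Mybpc2.

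Some myogenic and neuromuscular genes were at or near 0. The myogenic regulators Myod1, Myog and Myf6 and the satellite cell factor Pax7 were listed at 0.0616 FPKM or less in every library, and Myf5 and the acetylcholine receptor subunit Chrnd were listed at 0 in all 9. These 6 genes were chosen after their values were seen, from a list of 21 neuromuscular and myogenic genes. Of the 8 tested in that list, 3 rose and 1 fell in HFD against CD, 1 rose and 2 fell in HFD_IO against HFD, and 1 rose and 2 fell in HFD_IO against CD. Over all tested genes the shares were 21.8% and 17.6%, 14.1% and 14.5%, and 17.5% and 15% in the same order. The most abundant was Des, the intermediate filament desmin of all muscle types, which fell in HFD_IO against HFD by 1.49 (SE 0.21, limma adjusted p = 0.00243).

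Actc1, the main actin of heart muscle, was highest in HFD_IO_2. Its level was 0.702, 11.2 and 0.280 FPKM in HFD_IO, 3.78, 0.665 and 0.571 FPKM in HFD, and 2.49, 1.16 and 1.63 FPKM in CD. HFD_IO_2 was high, HFD_1 and CD_1 came next, HFD_2 and HFD_3 were among the lowest 3, and all groups overlapped. For Acta1, Mylpf, Myh4 and Ckm, HFD_IO_2 was the highest library after HFD_2 and HFD_3, though not for Tnnt3. Differences were 0.36 (SE 0.78) in HFD_IO against HFD, 0.14 (SE 0.78) in HFD_IO against CD and -0.22 (SE 0.78) in HFD against CD, with limma adjusted p of 0.753, 0.909 and 0.841. Over 15 alternative settings the differences took both signs, from -0.68 to 0.97, from -0.87 to 0.75 and from -0.74 to 0.82 in the same order of comparisons.

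Myl7, the atrial light chain, had the same top 3 libraries. It was listed at 0.0917, 20.2 and 0.192 FPKM in HFD_IO, 9.30, 0.405 and 1.25 FPKM in HFD, and 7.56, 2.02 and 4.00 FPKM in CD. HFD_IO_2, HFD_1 and CD_1 were the high libraries, in the order of Actc1. Myh6, the cardiac myosin heavy chain, and Nppa, the atrial natriuretic peptide, were chosen after their values were seen. In HFD_IO_2 they were listed at 2.56 and 2.52 FPKM, and each stayed below 1 FPKM in every other library. Of 20 cardiomyocyte genes 10 were highest in HFD_IO_2, and among the 6 of them that were tested 4, or 66.7%, were highest there, against 12.6% of all tested genes. HFD_IO_2 was singled out in these same data, so these shares are a description and not a test. The summed level of the 20 was 26.7, 58.2 and 20.3 FPKM in HFD_IO, 38.8, 24.2 and 17.2 FPKM in HFD, and 45.3, 48.0 and 47.0 FPKM in CD, with Gja5, a connexin also made by arterial endothelium, the most abundant. None of the 6 tested genes passed in HFD_IO against HFD (limma, with 0 at an unadjusted p under 0.05 and 0 by voom), and 2 fell in each of the other comparisons, Gja5 and the calcium release channel Ryr2 (15% of all genes fell in HFD_IO against CD and 17.6% in HFD against CD).

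**Figure D3:**
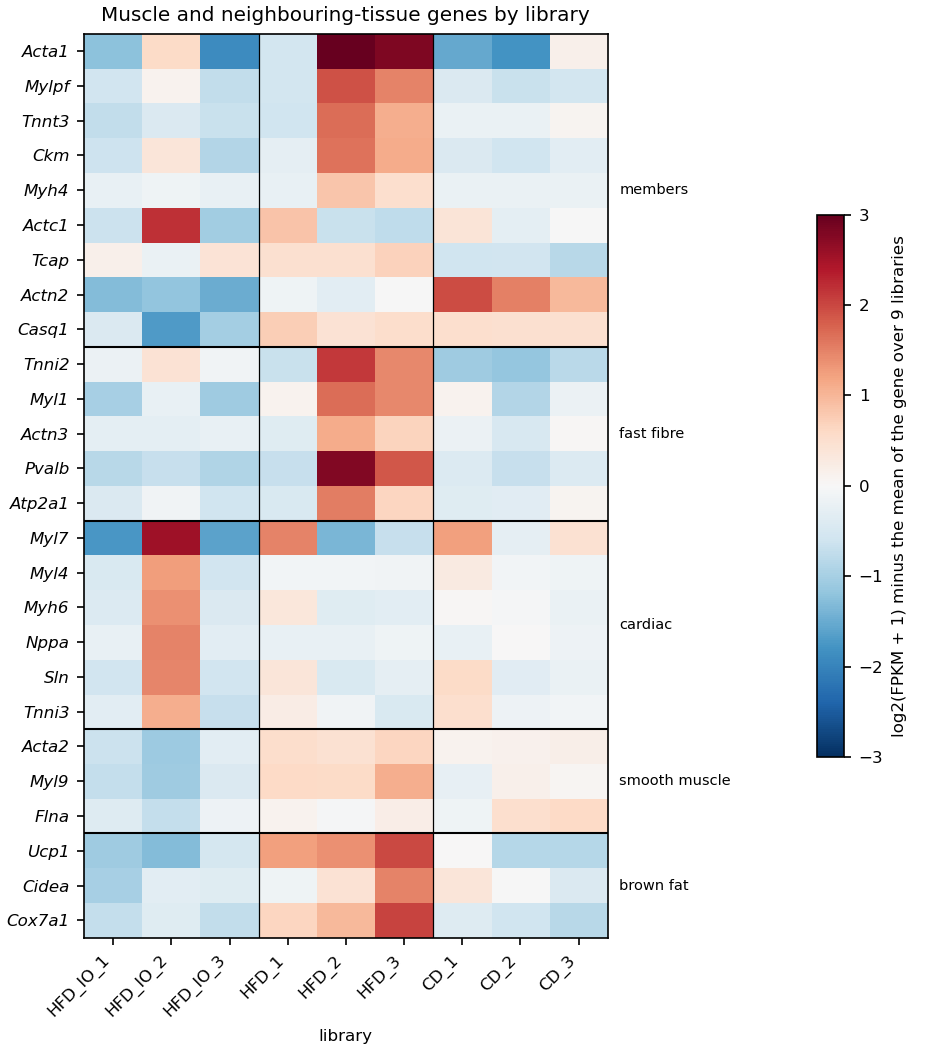
Departure of log2(FPKM + 1) from the mean of the gene over the 9 libraries (colour), for 9 members and for fast fibre, cardiac, smooth muscle and brown fat genes (rows, partly chosen after their values were seen) in each library (columns, HFD_IO, HFD, CD). Acta1 and the fast fibre genes are dark in HFD_2 and HFD_3, Actc1 and the cardiac genes in HFD_IO_2, and Actn2 in the 3 CD libraries.

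Actn2, an actinin that crosslinks thin filaments at the Z-disc of cardiac and skeletal muscle, differed between all groups. The level of Actn2 was 1.15, 1.35 and 0.896 FPKM in HFD_IO, 3.90, 3.29 and 4.26 FPKM in HFD, and 19.7, 14.2 and 9.49 FPKM in CD. No groups overlapped, and the means were 1.13 ± 0.226 FPKM in HFD_IO, 3.82 ± 0.491 FPKM in HFD and 14.5 ± 5.11 FPKM in CD (SD, n = 3 each). Actn2 fell in HFD_IO against HFD by 1.18 (SE 0.22, limma adjusted p = 0.00612), in HFD_IO against CD by 2.81 (SE 0.22, adjusted p = 4.43e-05) and in HFD against CD by 1.63 (SE 0.22, adjusted p = 0.00117). Both comparisons with CD passed in all 16 alternative settings. HFD_IO against HFD passed in 15, the exception being the omission of both HFD_2 and HFD_3, which left 1 HFD library, its spread taken from the other groups (-1.21, adjusted p = 0.106).

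Casq1 encodes the calcium store protein of the fast sarcoplasmic reticulum. It was listed at 10.2, 3.65 and 6.45 FPKM in HFD_IO, at 24.2, 19.5 and 21.0 FPKM in HFD, and at 20.6, 20.3 and 20.1 FPKM in CD. All HFD_IO libraries lay below the other 6, and HFD and CD overlapped. Casq1 fell in HFD_IO against HFD by 1.63 (SE 0.26, limma adjusted p = 0.00344) and in HFD_IO against CD by 1.55 (SE 0.26, adjusted p = 0.00201), while HFD against CD gave 0.08 (SE 0.26, adjusted p = 0.833). HFD_IO against CD passed in all 16 settings and HFD_IO against HFD in 15. The exception was the omission of both HFD_2 and HFD_3 (-1.79, adjusted p = 0.0682), which left 1 HFD library, assumed to vary like those of the other groups, so its p says little of stability. The antisense gene Gm17224 shares 8.00% of the exonic bases of Casq1. The summed smooth muscle genes were lowest in HFD_IO as well, and their part in the difference of Casq1 was not tested.

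Tcap encodes telethonin, which caps titin at the Z-disc. It was the most abundant member in every library, at 156, 121 and 184 FPKM in HFD_IO, 193, 195 and 226 FPKM in HFD, and 91.5, 93.0 and 77.3 FPKM in CD. The 3 groups did not overlap, with HFD highest and CD lowest. Tcap rose in HFD against CD by 1.22 (SE 0.16, limma adjusted p = 0.00117) and in HFD_IO against CD by 0.79 (SE 0.16, adjusted p = 0.00568), both in all 16 settings, and differed by -0.43 (SE 0.16, adjusted p = 0.0794) in HFD_IO against HFD. That difference passed without HFD_IO_3 (-0.57, adjusted p = 0.0396). Tcap made up 81.1% to 94.7% of the summed level of the 10 members in HFD_IO, 65.4% to 83.8% in HFD and 65.8% to 70.1% in CD. Acta1 made up 0.133% to 3.98% in HFD_IO, 0.936% to 17.2% in HFD and 0.250% to 3.53% in CD. A sum over the 10 members is therefore mainly a measure of Tcap.

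Tnnc2, the fast troponin C that binds calcium, had 1 read in HFD_IO_1, 2 reads in HFD_IO_2 and 0 in the other 7 libraries, where 3 reads would have given 0.204 to 0.231 FPKM. Its pattern was not measurable from these reads. In HFD_2 and HFD_3, where Tnnc2 had 0 reads, Tnnt3 had 286 and 178. Ube2c on the opposite strand shares 74% of the 800 exonic bases of Tnnc2, and was itself listed at 1.79 to 3.43 FPKM in HFD_IO, 1.82 to 2.81 FPKM in HFD and 0.993 to 3.58 FPKM in CD. The part of this overlap in the low count of Tnnc2 was not tested.

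Counted over the 8 tested members, 2 rose and 1 fell in HFD against CD, namely Acta1, Tcap and Actn2, while 21.8% of the 13883 tested genes rose and 17.6% fell. The split of all genes depended on the scaling, with 3030 higher and 2440 lower on FPKM and 1018 higher and 4948 lower on TPM, where Tcap and Actn2 still passed in the same directions. In HFD_IO against HFD, 0 rose and 2 fell, namely Actn2 and Casq1, against 14.1% and 14.5% of all genes. At an unadjusted p under 0.05 the counts in that comparison were 0 higher and 7 lower, Actc1 being the exception, and by voom they were 0 and 2. In HFD_IO against CD, 1 rose and 2 fell, namely Tcap, Actn2 and Casq1, against 17.5% and 15% of all genes. The median log2 change of the 8 was 1.02, -1.27 and 0.10 in these comparisons. Over all tested genes it was 0.06, -4.2e-05 and -0.01. The counts join genes that followed different libraries, and nothing particular to the members is read from them.

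**Figure D4:**
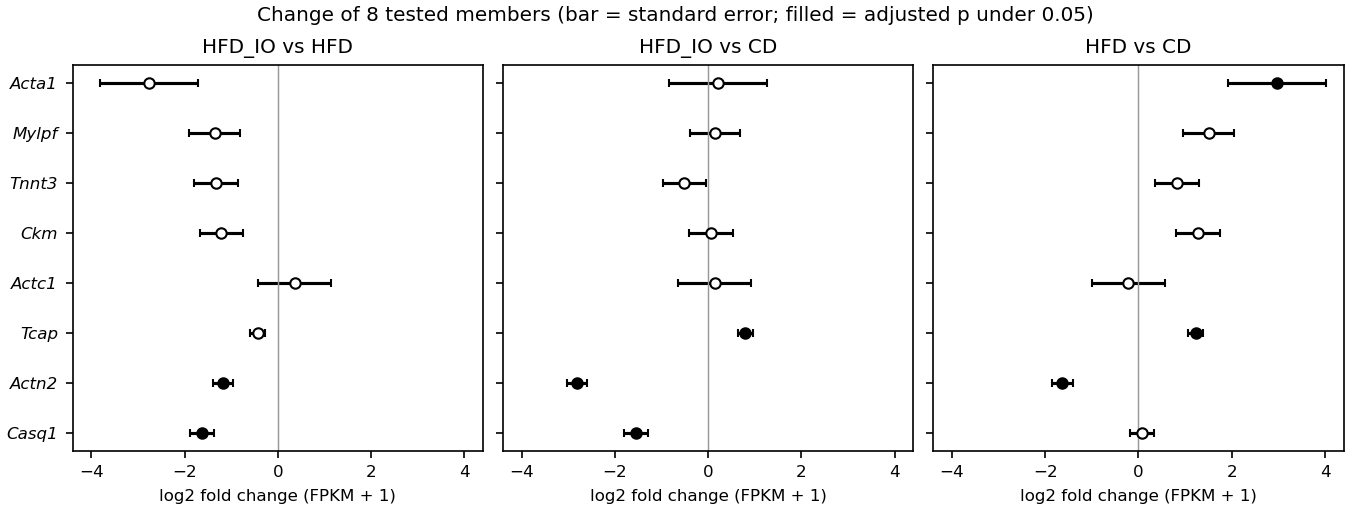
Log2 fold change of FPKM + 1 (horizontal axis) for the 8 tested members in HFD_IO against HFD, HFD_IO against CD and HFD against CD, with standard errors (bars) and filled points where the limma adjusted p was under 0.05. Acta1, Mylpf, Tnnt3, Ckm and Actc1 have wide bars, with an SE of 1.05 for Acta1, whereas Tcap, Actn2 and Casq1 have narrow ones, with an SE of 0.22 for Actn2.

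Agreement between the members was also tested apart from HFD_2 and HFD_3. HFD_2 and HFD_3 stood apart for Acta1, Mylpf, Tnnt3, Ckm and Myh4, so no correlation over all 9 libraries is given. They stood apart by only 1.01-fold for Tcap, and not for Actc1, Actn2, Casq1 and Tnnc2. The 45 pairs of members were compared over the other 7 libraries, a choice made after seeing the data. These 7 mix 3 regimens and were permuted freely, so r can also reflect differences between groups. Of the 45, 1 passed after adjustment, Actc1 with Ckm (Pearson r = 0.97, exact two-sided permutation p = 0.000992, adjusted 0.0446). Its Spearman rho was 0.96 (exact p = 0.00278, adjusted 0.125), and r was 0.84 without the 2 libraries farthest from the median of Actc1. The pair no longer passed when HFD_IO_2, the highest of these 7 for both genes, or any of HFD_IO_1, HFD_IO_3, HFD_1, CD_2 and CD_3 was left out. With 1 of these 7 left out, even the smallest possible exact p is too large for a lone pair among 45 to pass. These omissions therefore do not measure how far the pair depends on any 1 library. A further 4 pairs had an adjusted exact permutation p of 0.0625, namely Acta1 with Ckm (r = 0.87), Mylpf with Ckm (r = 0.93), Actc1 with Mylpf (r = 0.91) and Tcap with Tnnt3, which ran opposite (r = -0.94). Without the 2 farthest libraries r was 0.80, 0.40, 0.46 and -0.95 in that order. Acta1 gave r = -0.18 with Tcap, -0.25 with Casq1 and -0.18 with Actn2, with adjusted exact permutation p of 0.874 or more.

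Tissues near the aorta were measured beside the members. The 12 brown adipocyte genes summed to 121 to 162 FPKM in HFD_IO, 341, 418 and 738 FPKM in HFD_1 to HFD_3, and 168 to 256 FPKM in CD. Ucp1, the uncoupling protein that defines brown fat, was listed at 31.6 to 55.2 FPKM in HFD_IO, 189, 209 and 321 FPKM in HFD, and 43.5 to 81.0 FPKM in CD. All 3 HFD libraries were high in these genes, HFD_1 included, while HFD_1 was low in Acta1, Mylpf, Tnnt3 and Myh4. HFD_3 held the most of the brown fat genes and HFD_2 the most of Acta1, Mylpf, Tnnt3, Ckm and Myh4. Of the 8 tested brown adipocyte genes, 4 rose and 2 fell in HFD against CD, 4 fell in HFD_IO against HFD, and 2 fell in HFD_IO against CD. Of all tested genes 21.8% rose and 17.6% fell, 14.5% fell, and 15% fell in these comparisons. The part of brown fat in the levels of the members was not tested.

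The muscle energy genes supply contraction with fuel and ATP. Cox8b, a subunit of cytochrome oxidase in heart, muscle and brown fat, was listed at 93.7, 156 and 104 FPKM in HFD_IO, 282, 351 and 845 FPKM in HFD, and 220, 135 and 90.2 FPKM in CD. Fabp3, the fatty acid carrier of heart and muscle, was listed at 25.8 to 61.9 FPKM in HFD_IO, 65.8 to 120 FPKM in HFD and 20.6 to 41.5 FPKM in CD. In both, HFD_3 was highest, and HFD lay above both other groups. Of 15 tested energy genes, 5 rose and 2 fell in HFD against CD, 5 fell in HFD_IO against HFD, and 2 rose and 5 fell in HFD_IO against CD, with median log2 changes of 0.77, -0.44 and -0.02. Over all tested genes 21.8% rose and 17.6% fell, 14.5% fell, and 17.5% rose and 15% fell, with medians of 0.06, -4.2e-05 and -0.01.

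The slow fibre and excitation-contraction lists were counted in the same way. Their counts are to be read against the 21.8% of all tested genes that rose and 17.6% that fell in HFD against CD, 14.1% and 14.5% in HFD_IO against HFD, and 17.5% and 15% in HFD_IO against CD. Of 6 tested slow fibre genes, 1 fell in HFD against CD, 1 rose and 1 fell in HFD_IO against HFD, and 2 rose and 2 fell in HFD_IO against CD. Tpm3, the slow fibre tropomyosin that non-muscle cells also make, rose in HFD_IO against HFD by 0.85 (SE 0.11, limma adjusted p = 0.00151), and Myoz2, a Z-disc protein of slow and cardiac muscle, fell by 1.40 (SE 0.20, adjusted p = 0.0023). Of 7 tested excitation-contraction genes, 1 rose and 1 fell in HFD against CD, 2 fell in HFD_IO against HFD and 4 fell in HFD_IO against CD. Hrc, a calcium-binding protein of the reticulum, rose in HFD against CD by 0.93 (SE 0.19, limma adjusted p = 0.00546) and fell in HFD_IO against HFD by 1.35 (SE 0.19, adjusted p = 0.00213).

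Genes outside all lists were ranked by Pearson's r of their log2 levels with the mean of the members over the 9 libraries. Predicted genes and pseudogenes were left out, and the first 10 of the rest are given. The measure is given without a test and includes HFD_2 and HFD_3, the libraries that stand apart for some of the members. It was 0.96 for Lsm14a (0.85 over the other 7 libraries), 0.96 for Ndufaf6 (0.86), 0.95 for Eif3h (0.83) and 0.95 for Rbp7 (0.81). Rnf121, Vps45, Zfp180, Anapc16, Ndufaf5 and Angptl8 followed, at 0.92 to 0.94. Rbp7, a retinol-binding protein, was listed at 0.452, 2.00 and 0.473 FPKM in HFD_IO, 2.71, 5.83 and 5.83 FPKM in HFD, and 1.74, 0.947 and 0.918 FPKM in CD. Lsm14a spanned only 15.7 to 17.9 FPKM in HFD_IO, 18.1 to 21.4 FPKM in HFD and 17.7 to 18.5 FPKM in CD.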

How the data were processed

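RNA sequencing values of 9 aorta libraries, 3 per group, were used as deposited. The FPKM values were made and deposited by the authors, 1 column per library, beside each gene's length. The submitters' processing notes name HISAT2 and hg38, a human build, but the gene identifiers are mouse: 54409 of 54532 are in GENCODE M21, 98.3% of them at the same coordinates (GRCm38). The counting tool is not given in the sources used here. In each library FPKM times length divided evenly by the worth of 1 read for 100% of values (tolerance 0.05 of a read), which gave back the reads per gene. The implied depth was 0.895 to 1.10 times their sum, so the deposited values carry a scaling other than the plain total.

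Levels were compared with limma 3.58.1 in R 4.3.3 on log2(FPKM + 1), with a mean-variance trend, all 9 libraries, and 13883 genes at 1 FPKM or more in at least 3 libraries. A fold change on this scale understates the change of low genes. P-values were adjusted by Benjamini-Hochberg over all tested genes within a comparison, threshold 0.05. The fit was tested on simulated data. Correlations used exact permutations of the libraries. Promoters came from RefSeq.

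Members and lists (fast, slow, cardiac, excitation-contraction, energy, neuromuscular, smooth muscle, brown and white fat, nerve) were chosen with earlier results of these data known. Named genes were the members and, from each muscle list, the 4 most abundant and the 2 most changed (HFD against CD). The 3 most abundant of the other lists were named too, with the 10 most like the members, predicted genes and pseudogenes left out. Not all that met this rule are described. Alternatives were another pseudocount (0.1), filter and scaling, voom on recovered reads, and omitted libraries.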

Additional observations from a re-analysis of the deposited data

How the results depend on the processing

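No called change of a member turned its sign under any alternative. Of 372 values of single members under alternatives, 347 kept their side of the threshold, 10 newly passed and 15 no longer passed, 13 of the 15 for Acta1 in HFD against CD. The count of members that rose in HFD against CD, 2 in the fit reported, was 1 with a pseudocount of 0.1, 1 with no filter, 1 after rescaling to TPM, 1 after quantile normalization, 1 by voom and 1 without both HFD_2 and HFD_3, and 1 to 5 with single libraries left out. The count that fell in HFD_IO against HFD was 0 without both HFD_2 and HFD_3 and 2 to 6 with single libraries left out, the highest without HFD_1. Pairs of members past the threshold numbered 0 with a pseudocount of 0.1, 0 on TPM and 0 to 2 with single libraries left out. With a library left out, a lone pair could not pass at any r, so the last of these counts do not measure stability. Over all genes, an FPKM minimum of 5 gave 1332 lower in HFD against CD, 1288 higher in HFD_IO against HFD and 1367 lower in HFD_IO against CD. TPM gave 1018 higher and 4948 lower in HFD against CD (3030 and 2440 as reported), 1160 lower in HFD_IO against HFD (2013 as reported), and 1528 higher and 3800 lower in HFD_IO against CD (2427 and 2089 as reported). TPM moved the median log2 change of all genes to -0.30 in HFD against CD, 0.14 in HFD_IO against HFD and -0.23 in HFD_IO against CD. On TPM, Tcap still rose in HFD against CD (0.83) and Actn2 still fell (-2.15). Without both HFD_2 and HFD_3, 851 genes were higher and 456 lower in HFD against CD, and 205 higher and 186 lower in HFD_IO against HFD. With single libraries left out, HFD_IO against HFD gave 1182 to 2437 higher and 1093 to 2507 lower, and HFD_IO against CD gave 1260 to 2463 lower. The cause of these shifts was not tested, other than the fewer genes or libraries that enter. Voom, the omission of both HFD_2 and HFD_3, and the use of 7 libraries for the pairs were chosen after seeing the data. The planned edgeR and DESeq2 fits were not run, because the deposited unit is FPKM, and the pairs were not centred on group means, which would leave HFD with 1 library. No paired analysis was possible because the groups share no replicate numbers in the labels. Tnnc2 and Myh4 rest on few reads, 3 and 184 in all.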

Other observations

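HFD_1, the HFD library low in Acta1, Mylpf, Tnnt3 and Myh4 but the highest of all libraries for Casq1, was high in some nerve genes. Th, the rate-limiting enzyme of catecholamine synthesis, was listed there at 16.03 FPKM and at no more than 0.335 FPKM in any other library. Dbh, which makes noradrenaline, was listed at 11.8 FPKM in HFD_1 and at no more than 0.210 FPKM elsewhere, and Gap43, a growth cone protein, at 17.8 FPKM in HFD_1 and no more than 2.00 FPKM elsewhere. These genes were chosen after their values were seen, from a list of 12 nerve and Schwann cell genes, and do not stand for that list. Npy, a neuropeptide of sympathetic nerves, was listed at 60.6, 50.6 and 46.3 FPKM in HFD_IO, 36.9, 6.97 and 7.18 FPKM in HFD, and at most 0.388 FPKM in CD. HFD_1 was the highest HFD library for Npy too, while all of HFD_IO lay above it. Of 8 tested nerve and Schwann cell genes, 3 rose in HFD against CD, 1 rose in HFD_IO against HFD and 4 rose in HFD_IO against CD (21.8%, 14.1% and 17.5% of all tested genes rose). Of 11 tested white adipocyte genes, 5 rose in HFD against CD and 4 fell in HFD_IO against HFD (21.8% of all tested genes rose and 14.5% fell). In HFD_IO against CD none of the 11 passed by limma, with 1 higher at an unadjusted p under 0.05 and 0 by voom.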
